A study of Rattus norvegicus with 8 samples.

Results

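The microRNAs (miRNAs) described here are 60 mature arms, among the 719 rat miRNAs of the array, whose names are known from cell lineages other than glia. The rule is a list of 36 names: every arm on the array of a listed name was taken, and 32 of the names were present. The names miR-203, miR-486, miR-155 and miR-126 had no entry among the miRNAs analysed here, while miR-203a and miR-126a did. The arms fell into 10 lineages: neuron (9 arms), epithelium (12), sensory epithelium (5), pigment epithelium, lens and choroid plexus (5), liver (2), gut, kidney and liver epithelium (5), pancreas (8), erythroid cells (4), leukocytes and inflammation (8) and endothelium (2). The name "foreign to glia" did not hold for every arm, since 5 of the 60 were detected on all 8 arrays. They are therefore called lineage-restricted here only by the list of names that chose them.

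The cells were C6, a rat glioma line that the labels give as glioblastoma, grown in high-glucose medium with horse and fetal bovine serum. Total RNA (100 ng per array) was labelled with Cy3 and hybridised to Agilent single-colour rat miRNA arrays. The 4 groups were untreated control cells and cells kept for 5 days with haloperidol at 2 µg/ml, risperidone at 4 µg/ml or clozapine at 25 µg/ml, each drug added to the medium daily. Each group had 2 arrays, which the design text calls biological repeats, and all cells were of the same line, so the spread is between cultures and their arrays. Haloperidol is a first-generation antipsychotic, and risperidone and clozapine are second-generation antipsychotics. The question the design sets is which miRNAs each drug changed against untreated cells. All 8 arrays lay on 1 slide, with 1 group in each column and 1 replicate number in each row, so the effect of a column and that of a treatment cannot be told apart.

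A miRNA is cut from a hairpin precursor that can yield an arm from each side, named -5p and -3p. The arm is loaded into an Argonaute protein and guides it to messenger RNAs that pair with the seed, the stretch of bases 2 to 8. Many miRNAs are made in few cell types and help to fix their identity: miR-124 represses non-neuronal transcripts in neurons, the miR-200 family keeps epithelium from turning mesenchymal through Zeb1 and Zeb2, and miR-122 is the main miRNA of hepatocytes. In bulk RNA, a few cells with much of a miRNA and many cells with little of it cannot be told apart.

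Under the array's names, 53 of the 60 arms matched a mature sequence in the RefSeq table used here (assembly GRCr8). The arms not matched by name were miR-124-3p, miR-124-5p, miR-150-3p, miR-150-5p, miR-200a-3p, miR-200b-3p and miR-429. The first set of sequences, with the seed in capitals, shows the matched arms detected on 4 or more arrays, since the results turn on them.
miR-204-5p: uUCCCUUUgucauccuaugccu
miR-211-5p: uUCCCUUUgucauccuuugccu
miR-211-3p: gGCAAGGAcagcaaaggggg
miR-146a-5p: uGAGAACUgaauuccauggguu
miR-126a-3p: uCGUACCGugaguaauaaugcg
miR-192-5p: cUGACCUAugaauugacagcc
miR-153-3p: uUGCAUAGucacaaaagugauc
miR-223-3p: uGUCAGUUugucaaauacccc
The second set shows arms that were detected on 0 arrays: miR-215, which shares a seed with miR-192-5p, and a well-known arm each of neuron, epithelium, sensory epithelium and pancreas.
miR-215: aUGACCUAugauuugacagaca
miR-137-3p: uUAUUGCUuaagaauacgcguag
miR-200c-3p: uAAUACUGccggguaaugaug
miR-205: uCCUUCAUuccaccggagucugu
miR-183-5p: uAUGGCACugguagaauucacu
miR-375-3p: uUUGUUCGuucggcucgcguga
The 53 arms had 50 different seeds, and 3 seeds were each shared by 2 arms. The seed UCCCUUU was shared by miR-204-5p and miR-211-5p, both 22 bases long with the single difference A17U (miR-204-5p base first, counted from the 5′ end). Signal of their probes is therefore uncertain as to which of the pair it came from, and cross-hybridisation was not tested. The seed UGACCUA was shared by miR-192-5p and miR-215, which differed at C1A, A12U and C20A. The seed AUCUUAC was shared by miR-200a-5p and miR-200b-5p, both detected on 0 arrays. The GC content was 34.8% to 65% (median 45.5%) in the 14 arms with a sequence that were detected on any array, and 30% to 69.6% (median 43.5%) in the 39 that were not.

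Most of these arms gave no signal above background in C6 cells. By the deposited detection flag of each miRNA, 16 of the 60 arms (26.7%) were detected on at least 1 array, against 36.6% of all 719 miRNAs. Only 5 of the 60 (8.33%) were detected on all 8 arrays, against 25.7% of all miRNAs. Another 11 were detected on some arrays, and 44 (73.3%) on none. The number of arms limits what such shares can show, and no test was made of them. A reference list of miRNAs found in glia (miR-7a, miR-9a, miR-21, miR-23a, miR-27a, miR-125b, miR-181a, miR-219 and miR-338) had 16 of 22 arms flagged on some array and 15 on all 8. Many of these, such as miR-21 and miR-23a, are made in many cell types. Of those better known from neural cells, miR-9a-5p of neural progenitors and astrocytes and miR-338-3p and miR-219-5p of oligodendrocytes were detected on all 8 arrays, while miR-219-1-3p and miR-219-2-3p were detected on 0. A skeletal muscle list (miR-1, miR-133a, miR-133b and miR-206) had 2 of 8 arms detected, neither on all 8 arrays, and a mesenchymal list (miR-143, miR-145, miR-199a and miR-214) had 4 of 8 detected and 2 on all 8.

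**Figure D1:**
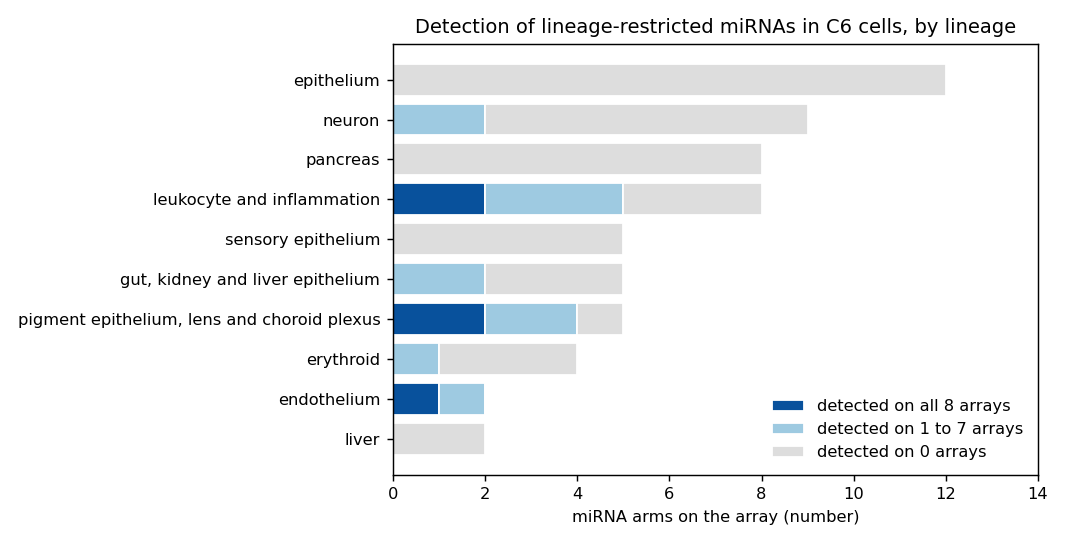
Number of arms on the array in each of the 10 lineages (x axis), split into arms detected on all 8 arrays, on 1 to 7 arrays and on 0 arrays by the deposited flag. Epithelium, pancreas, sensory epithelium and liver had 0 detected arms, and the leukocyte, pigment epithelium and endothelium lists held the 5 arms detected on all 8.

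The 4 lineages with 0 detected arms held 27 of the 60. They were epithelium (the miR-200 family with miR-141 and miR-429, miR-203a of differentiating keratinocytes and miR-205 of basal epithelium), sensory epithelium (miR-96, miR-182 and miR-183 of hair cells and photoreceptors), pancreas (miR-375 of islets, and miR-216a, miR-216b and miR-217 of acinar tissue) and liver (miR-122). In the other lineages, 7 of 9 neuronal arms were also detected on 0 arrays, among them both arms of miR-124 and of miR-137. So were miR-184, miR-192-3p, miR-194-3p, miR-215, both arms of miR-144, miR-451-3p, miR-142-5p, miR-146a-3p and miR-223-5p. None of the 6812 spots of these 44 arms, outlier spots left out, was flagged well above background on any array. Their summed background-subtracted signals ran from -33.4 to 6.17 intensity units with a median of -9.16, and the highest was miR-138-5p on haloperidol replicate 1. The other 412 undetected miRNAs of the array gave 1 of 63840 spots well above background and sums from -36.5 to 18.3, with a median of -8.82. The undetected lineage-restricted arms lay in the same range as the array's other undetected miRNAs, with 0 above the floor set for the levels below. Both sets were chosen by the absence of the detection flag on every array, so low signals in each follow from the choice. A signal near background gives only a limit on the level, which differs between probes.

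**Figure D2:**
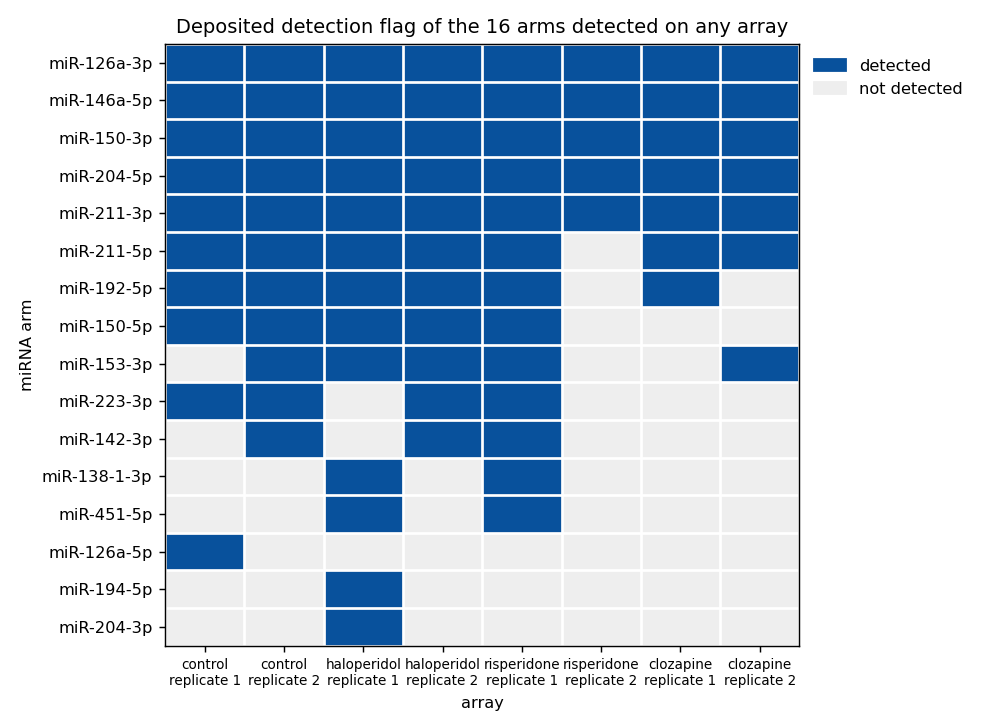
Deposited detection flag (blue, detected; grey, not detected) of the 16 arms detected on any array (rows) on each of the 8 arrays (columns). The 5 arms at the top were detected on every array, and risperidone replicate 2 detected no other arm.

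Control replicates 1 and 2 detected 10 and 11 of the lineage-restricted arms, the haloperidol replicates 13 and 11, the risperidone replicates 13 and 5, and the clozapine replicates 7 and 7. The drugs did not share a direction: the haloperidol arrays detected as many or more than the controls, and both clozapine arrays fewer. Control replicates 1 and 2 thus detected 16.7% and 18.3% of the 60 arms and each clozapine array 11.7%, while of all 719 miRNAs the controls detected 34.6% and 33.7% and the clozapine arrays 32.4% and 28.2%. Risperidone replicate 2 had the lowest share of both, 8.33% of the arms and 26.8% of all miRNAs, while the haloperidol arrays and risperidone replicate 1 detected 33.7% to 35.3% of all miRNAs. Between 20.17% (risperidone replicate 2) and 27.98% (haloperidol replicate 1) of spots lay well above background. The part of this array-wide difference in the arms' detection was not tested, nor was the difference between the arms and the array. Of the arms seen on few arrays, miR-126a-5p was detected on control replicate 1 alone, and miR-194-5p and miR-204-3p on haloperidol replicate 1 alone. The neuronal miR-138-1-3p and the erythroid miR-451-5p were detected on replicate 1 of haloperidol and of risperidone, and the haematopoietic miR-142-3p on control replicate 2, haloperidol replicate 2 and risperidone replicate 1. When an arm had instead to have at least 50% of the spots of a probe well above background, 12 of the 60 were detected on at least 1 array, and miR-126a-5p, miR-142-3p, miR-194-5p and miR-223-3p on none.

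Of the 60 arms, 10 had the flag on both replicates of 1 group or more and so entered the fit, together with 233 other miRNAs. Their levels are given as log2 of the summed signal divided by the array's 75th percentile, so that 0 is that percentile. Lower values were set to a floor at -6.21, on some arrays also where the arm was flagged detected. Levels are compared for the same arm between arrays only, since probes differ in brightness. A difference is the drug mean minus the control mean, with the standard error (SE) and adjusted p of the limma fit over all 243 miRNAs. With 2 arrays a group, the smallest p an exact permutation test allows is 0.333, so none was used, and the number of arrays limits the precision. All 3 comparisons share the same control arrays.

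**Figure D3:**
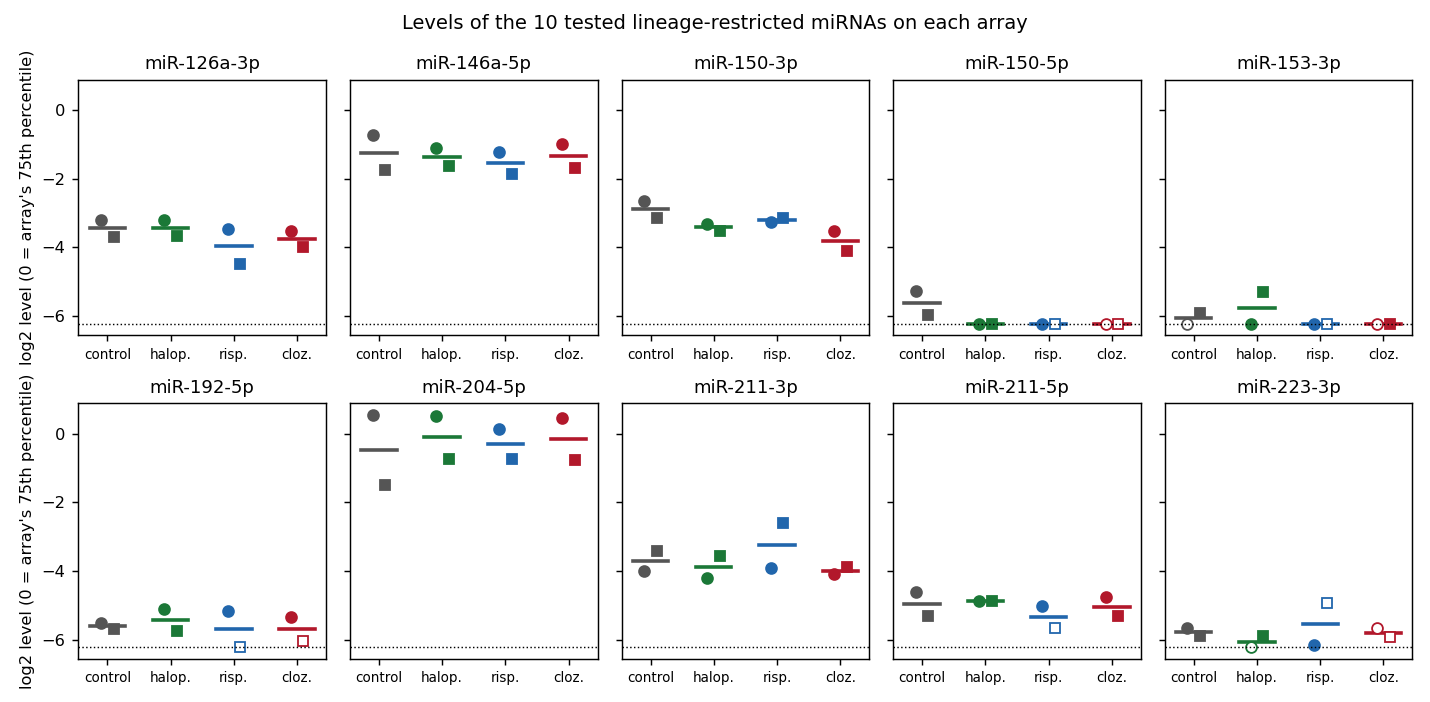
Log2 level (y axis; 0 is the 75th percentile of the array's scaling probes) of the 10 tested arms on each array, as circles for replicate 1 and squares for replicate 2, filled where the array detected the arm, with bars at group means and the floor dotted. In miR-204-5p the circle lies above the square in all 4 groups, and miR-150-5p lies at the floor on all 6 drug arrays.

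The list of pigment epithelium, lens and choroid plexus had 4 of 5 arms detected. Its miR-204 and miR-211 act in the retinal pigment epithelium, the lens and melanocytes. RefSeq places their hairpins inside genes of the same channel family: Mir204 at chr1:229743461-229743570 (plus strand, GRCr8) within Trpm3, and Mir211 at chr1:127189328-127189433 (plus strand) within Trpm1, the channel gene of melanocytes. The level of miR-204-5p was 0.54 and -1.49 in control cells, 0.52 and -0.73 with haloperidol, 0.13 and -0.75 with risperidone, then 0.45 and -0.76 under clozapine. The summed signals behind these levels were 1510 and 339 intensity units in control cells and 228 to 2120 on the drug arrays. Replicate 1 was high and replicate 2 low in every group, and the groups overlapped. The differences from control were 0.36, 0.17 and 0.31 with haloperidol, risperidone and clozapine (SE 0.86), inside the spread between replicates. Without control replicate 2, the lowest array, they were -0.65, -0.85 and -0.70, and with no scaling those of risperidone and clozapine were -0.45 and -0.11.

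Both arms of miR-211 were detected, though the signal of the miR-211-5p probes may come in part from miR-204-5p, which was not tested. The median summed signal over the 8 arrays was 30.9 intensity units for miR-211-5p and 827 for miR-204-5p. The level of miR-211-5p was -4.62 and -5.30 in control cells, -4.87 and -4.87 with haloperidol, -5.01 and -5.65 with risperidone (replicate 2 not detected), then -4.76 and -5.30 under clozapine. That of miR-211-3p was -3.99 and -3.41, then -4.19 and -3.55, -3.90 and -2.59, and -4.10 and -3.88 in the same order of groups. For miR-211-3p the order of the scaled levels was the other way round, with replicate 2 higher in every group and risperidone replicate 2 the highest array. Its summed signals were 65.5 and 89.1 intensity units in control cells and 81 and 81.5 with haloperidol. They were 73 and 63.5 with risperidone and 46.4 and 46.6 under clozapine. Before scaling, risperidone replicate 2 thus lay below replicate 1, and it was the array with the lowest 75th percentile. The differences from control were 0.08, -0.37 and -0.07 for miR-211-5p (SE 0.34) and -0.17, 0.45 and -0.29 for miR-211-3p (SE 0.49), and in each the drug arrays overlapped the control arrays. The difference of miR-211-3p with risperidone was -0.20 without risperidone replicate 2 and -0.17 with no scaling. Both miR-211-3p probes had at least 50% of spots well above background on all 8 arrays, while none of the 3 probes of miR-211-5p did so on every array.

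The leukocyte and inflammation list had 5 of 8 arms detected, 2 of them on all 8 arrays. One of these was miR-146a-5p, which is induced by NF-kappaB and damps Toll-like receptor signalling through Traf6 and Irak1, and which is made by glia as well as by leukocytes. Its level was -0.74 and -1.75 in control cells, -1.11 and -1.62 with haloperidol, -1.23 and -1.87 with risperidone, then -1.01 and -1.68 under clozapine. Replicate 1 was above replicate 2 in all 4 groups, and the differences from control, -0.12, -0.30 and -0.10 (SE 0.46), were smaller than that gap in the controls. Its hairpin lies at chr10:28349996-28350090 (minus strand, GRCr8).

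Under each drug an arm of miR-150, a miRNA of mature lymphocytes that restrains Myb, had the lowest difference from control of the 10 tested arms. The level of miR-150-3p was -2.64 and -3.15 in control cells, -3.31 and -3.53 with haloperidol, -3.27 and -3.15 with risperidone, then -3.52 and -4.10 under clozapine. After scaling, all 6 drug arrays lay below both control arrays, by a margin under 0.01 for risperidone replicate 2. The summed signals were 167 and 107 intensity units in control cells and 149 and 82.5 with haloperidol. They were 113 and 43.2 with risperidone and 69.2 and 39.9 under clozapine. Before scaling, replicate 1 of haloperidol and of risperidone thus lay above control replicate 2. With clozapine the difference was -0.91 (SE 0.27, a 1.88-fold lower mean), with an unadjusted p of 0.0173 and an adjusted p of 0.326 by limma, so it did not pass the threshold of 0.05. With haloperidol it was -0.52 (SE 0.27, adjusted p 0.576) and with risperidone -0.31 (SE 0.27, adjusted p 0.552). Without control replicate 1 these became -0.27 and -0.060, without control replicate 2 the one with risperidone became -0.57, and with clozapine the difference ran from -1.21 to -0.62 when 1 array at a time was left out. The sign changed with clozapine under normexp background correction (0.24, where the median of all miRNAs was 0.55), and with risperidone under normexp (0.20, median 0.37) and under scaling to the percentile over all probes (0.27, median 0.35). It did not change with haloperidol. With no scaling the differences with haloperidol, risperidone and clozapine were -0.26, -0.93 and -1.34. The medians of all miRNAs were then 0.09, -0.64 and -0.55. With the slide row as a block, the adjusted p with clozapine by limma was 0.0993, the lowest of its alternatives, which ranged up to 1.

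The level of miR-150-5p was -5.27 and -5.96 in control cells and at the floor on all 6 drug arrays. The summed signals were 26.9 and 15.3 intensity units in control cells, 20 and 6.34 with haloperidol, 10.9 and -4.97 with risperidone, then 5.58 and -2.32 under clozapine. The arm was detected on both control arrays, both haloperidol arrays and risperidone replicate 1, and on 0 clozapine arrays. The signal of haloperidol replicate 1 thus lay above that of control replicate 2 before scaling. With the drug levels set to the floor, the fitted difference was -0.60 (SE 0.24) with each drug, at an unadjusted p of 0.048 by limma. With no scaling it was -0.37 with haloperidol and -0.72 with risperidone and with clozapine. For haloperidol, risperidone and clozapine the adjusted p by limma was 0.576, 0.453 and 0.326. The floor hides spread on the drug arrays, so this SE and p may be too low. Without control replicate 2 the difference was -0.94 with each drug, and without control replicate 1 it was -0.25. In these fits 1 control array was left and all drug levels were at the floor. No group then showed any spread for this arm, so whether it passed the threshold there cannot be read as a result. Over the other alternatives the adjusted p of miR-150-5p ranged up to 1 with each drug. With the floor at the 1st percentile of detected values the differences were -1.11, -1.66 and -1.91, and with normexp they were -0.29, 0.39 and 0.77. When at least 50% of the spots of a probe had to lie above background, the arm was detected on 3 arrays in place of 5. That rested on 1 of its 2 probes, since the other reached it on 0 arrays. Both probes of miR-150-3p reached it on all 8.

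The other leukocyte arms were dim. The level of miR-223-3p, a myeloid miRNA, was -5.66 and -5.89 in control cells, at the floor and -5.89 with haloperidol, -6.13 and -4.92 with risperidone, then -5.65 and -5.92 under clozapine. Its summed signals ran from 11.3 to 20.6 intensity units over the 8 arrays, and the highest level, on risperidone replicate 2, came from a signal of 12.7 on the array with the lowest 75th percentile, where the arm was not detected. Both haloperidol arrays lay below both control arrays, at a difference of -0.28 (SE 0.41). For replicate 2 the difference was -0.007, with signals of 16.1 with haloperidol and 16 in control cells. Haloperidol replicate 1 did not detect the arm. The differences were 0.25 with risperidone and -0.02 with clozapine, and with no scaling the one with risperidone was -0.37. From the deposited gene-level signal they were -0.50, -0.87 and -0.87 with haloperidol, risperidone and clozapine. That signal holds a fixed entry of 0.1 wherever a miRNA was not detected. Neither of its probes had at least 50% of spots above background on any array.

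The endothelial list had both arms flagged, but miR-126a-5p on control replicate 1 alone and with 0% of its spots above background on every array. The other arm, miR-126a-3p, which supports vessel integrity through VEGF signalling, was detected on all 8 arrays. Its level was -3.20 and -3.69 in control cells, -3.20 and -3.68 with haloperidol, -3.47 and -4.47 with risperidone, then -3.51 and -3.99 under clozapine. The haloperidol and control arrays lay almost on each other, and the lowest array was risperidone replicate 2. The difference with risperidone was -0.52 (SE 0.41, adjusted p 0.549 by limma), with overlapping groups. It was -0.023 without risperidone replicate 2, -1.02 without risperidone replicate 1 and -0.28 without control replicate 1, and it changed sign under normexp (0.30) and under scaling to the percentile over all probes (0.06). The differences were 0.01 with haloperidol and -0.31 with clozapine. One of its 2 probes had at least 50% of spots above background on all 8 arrays, and the other on 6.

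The list of gut, kidney and liver epithelium had 2 of 5 arms detected. The p53-responsive miR-192-5p was detected on 6 arrays, at -5.52 and -5.69 in control cells, -5.10 and -5.75 with haloperidol, -5.17 and the floor with risperidone, then -5.33 and -6.04 under clozapine. The 2 arrays that did not detect it were replicate 2 of risperidone and of clozapine, the lowest levels of the 8. The differences from control were 0.18, -0.09 and -0.08 (SE 0.45) with overlapping groups. Its hairpin (chr1:212994209-212994318, plus strand, GRCr8) starts 185 bases after that of Mir194-2, and miR-194-5p was detected on 1 array. A second copy of the latter, Mir194-1, starts 274 bases before Mir215, whose arm was detected on 0 arrays. Among other neighbouring hairpins, the starts of Mir144 and Mir451a lie 172 bases apart, with miR-451-5p, an arm of red cells, detected on 2 arrays and miR-144 on 0. The neighbours Mir141 and Mir200c, Mir200a and Mir200b, Mir96, Mir182 and Mir183, and Mir216a and Mir217 gave 0 detected arms.

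The neuronal list had 2 of 9 arms detected. The level of miR-153-3p, whose hairpin lies within Ptprn2 and which is known from neurons and secretory cells, was at the floor and -5.91 in control cells and at the floor and -5.29 with haloperidol. With risperidone and clozapine it was at the floor on all 4 arrays. The 2 levels above the floor were thus both of replicate 2, and the arm was flagged detected on 5 arrays, 3 of them with a level at the floor. The differences were 0.31, -0.15 and -0.15 (SE 0.31), of which the first became -0.15 without haloperidol replicate 2. The other neuronal arm, miR-138-1-3p, did not enter the fit; its summed signal was 7.93 and 20.9 intensity units in control cells, 51.9 and 22.4 with haloperidol, 40.7 and 4.98 with risperidone, then 29.9 and 6.95 under clozapine.

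**Figure D4:**
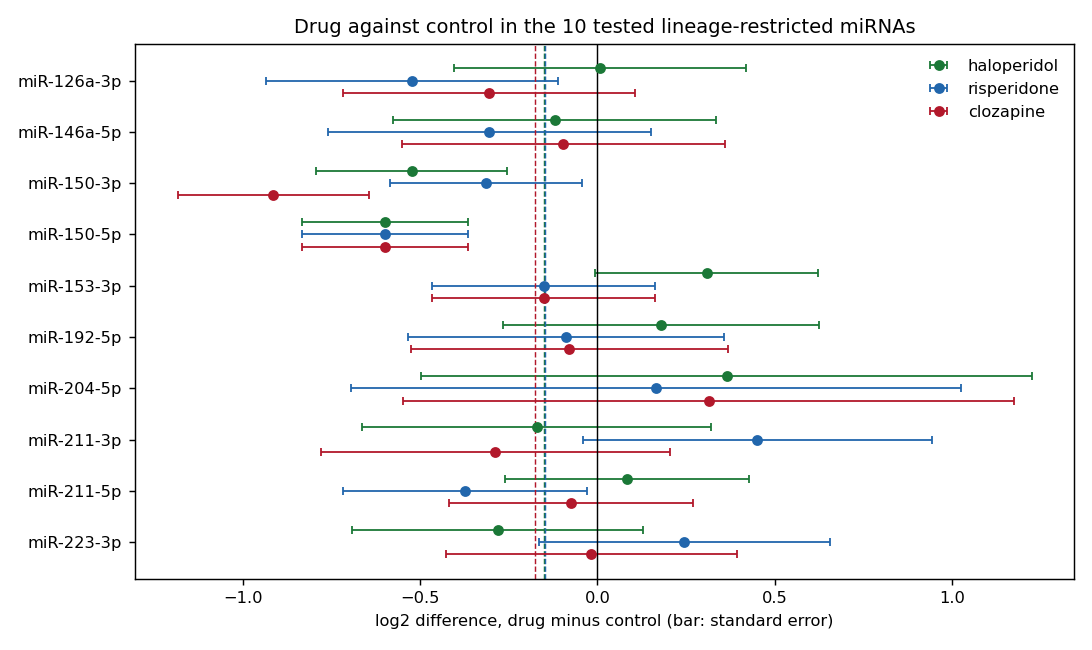
Log2 difference from control (x axis; points are estimates, bars 1 standard error) of the 10 tested arms with each drug, with the median of all 243 tested miRNAs dashed. With this scaling all 3 differences of both miR-150 arms lie below 0, and the bars of miR-204-5p are the widest.

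None of the 10 tested arms passed the adjusted threshold with any drug. The same held for all 243 miRNAs: limma called 0% of them with haloperidol, risperidone or clozapine and 0% in the F test over the 4 groups. With the slide row as a block limma called 0, 1 and 2 of the 243, none of them a lineage-restricted arm. Without control replicate 2 some miRNAs were called with each drug, miR-150-5p among them, but 1 control array was then left. The levels of miR-150-5p showed no spread within any group of that fit. At an unadjusted p under 0.05, haloperidol gave 1 of the 10 arms (miR-150-5p) against 7% of all 243 (17 miRNAs), risperidone gave 1 (miR-150-5p) against 9.05% (22), and clozapine gave 2 (both miR-150 arms) against 14.8% (36). These counts moved with the settings: they were 41, 61 and 64 with the slide row as a block, 59, 61 and 67 without control replicate 2, and 1, 0 and 6 with no scaling. With the block, miR-126a-3p with risperidone also had an unadjusted p under 0.05 (0.0348, adjusted p 0.177 by limma). The F test gave 8 of 243 at an unadjusted p under 0.05 (38 with the block), and its smallest p among the arms was 0.077 (miR-150-3p, adjusted p 0.778 by limma). The smallest adjusted p of any miRNA by limma was 0.573, 0.232 and 0.284 in the same order of drugs.

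At the scaled levels, the counts of arms lying wholly below or above control were near those of the array. With haloperidol 3 arms (both of miR-150 and miR-223-3p) had both drug arrays below both control arrays, against 32.9% of all tested miRNAs, and 0 had both above, against 11.1%. With risperidone 2 arms (both of miR-150) lay below, against 32.9%, and 0 above, against 6.17%. With clozapine 2 arms (both of miR-150) lay below, against 34.2%, and 0 above, against 5.35%. These shares are close to those of all tested miRNAs. The median difference of the 10 arms under haloperidol, risperidone and clozapine was -0.06, -0.23 and -0.12, beside -0.15, -0.15 and -0.17 for all 243. Differences below 0 were found in 5, 7 and 9 of the 10 arms, and in 60.5%, 60.5% and 66.7% of all tested miRNAs. The median SE of the arms was 0.41, against 0.29 for all. Of the 30 differences (10 arms, 3 drugs), 12 changed sign under scaling to the percentile over all probes, 19 under normexp, 6 with no scaling and 5 under quantile normalization, and 0 of these turned values passed the threshold.

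**Figure D5:**
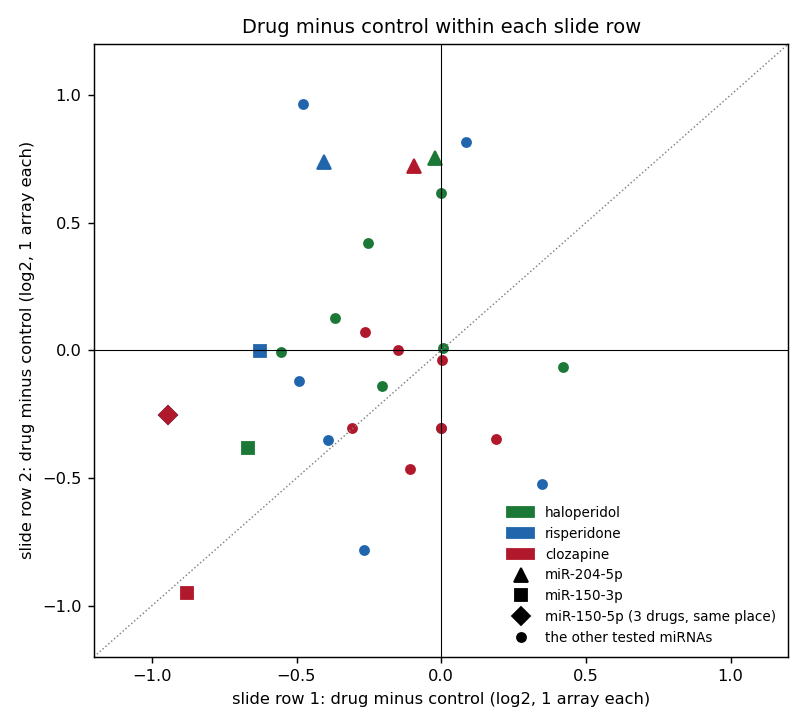
Drug minus control within slide row 1 (x axis) and row 2 (y axis), 1 array on each side, for the 10 tested arms and 3 drugs; points on the dotted line have the same difference in both rows. The 3 miR-204-5p points lie left of 0 in row 1 and above 0.7 in row 2, while miR-150-3p with clozapine lies below -0.8 in both.

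The slide row moved with several of these arms. Row 1 was above row 2 in all 4 groups for 5 of the 10 tested arms (miR-126a-3p, miR-146a-5p, miR-192-5p, miR-204-5p and miR-211-5p), against 30.5% of all 243 miRNAs. Of these, miR-204-5p and miR-211-5p may share signal and so may not count separately. It was below row 2 in all 4 groups for miR-211-3p alone, against 8.64% of all. Before scaling, row 1 of this arm lay above row 2 with risperidone. The rows were then almost equal with haloperidol (81 and 81.5 intensity units) and clozapine (46.4 and 46.6). The mean gap was widest in miR-204-5p (2.54-fold), at 2.03 in control cells and 1.25, 0.88 and 1.21 with haloperidol, risperidone and clozapine. The median gap of all tested miRNAs was 0.01, 0.04, 0.22 and 0.15 in the same order. Since the row was also the replicate number, the row and the culture cannot be told apart.

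Within rows, miR-204-5p differed from control by -0.02 in row 1 and 0.75 in row 2 with haloperidol, by -0.41 and 0.74 with risperidone, and by -0.09 and 0.72 with clozapine. Its direction was thus not the same in both rows with any drug. For miR-150-3p the differences were -0.67 and -0.38 with haloperidol, -0.63 and -0.00 with risperidone, then -0.88 and -0.95 under clozapine, so that only the clozapine difference was of like size in both. For miR-150-5p they were -0.94 and -0.25 with each drug, since all drug levels were at the floor. The difference of miR-126a-3p with risperidone was -0.27 in row 1 and -0.78 in row 2, and with clozapine -0.31 and -0.30. For miR-146a-5p the rows gave -0.37 and 0.13 with haloperidol, -0.49 and -0.12 with risperidone, then -0.26 and 0.07 under clozapine. For miR-192-5p they gave 0.42 and -0.06, 0.35 and -0.52, and 0.19 and -0.35, with opposite signs under each drug.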

How the data were processed

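The authors deposited 2 files per array, made with Agilent Feature Extraction 10.7.3.1 per the file headers. One holds background-subtracted spot signals and medians as intensity and the 0 or 1 flags (unit other) of each spot; the other deposited file holds a summed intensity and a detection flag per miRNA. The arrays were not scaled to each other in the deposited values. An array carried 14380 spots, control spots left out, of 1730 probes. With outlier spots removed, the mean signal of each probe was taken, and the means of a miRNA's probes were added. To scale the arrays, these totals were divided by the 75th percentile of the 292 probes that had more than 50% of spots well above background on every array. A floor was set at 0.0135, the 5th percentile of what detected miRNAs reached after scaling, before log2 was taken.

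Group means of miRNAs detected on both arrays of a group were fitted to the 8 arrays by lmFit and eBayes of limma 3.58.1 under R 4.3.3 (4 residual and 5.42 total degrees of freedom), two-sided, with p-values adjusted by Benjamini and Hochberg at 0.05. Same-numbered arrays lay in the same slide row per the file headers, and their deviations from the group means correlated at 0.163 to 0.714 over the 6 pairs of groups, so the row was tried as a block. Alternatives changed the scaling, background correction, probe summary, floor, detection filter and arrays used. Every arm detected on any array was named, with SE and adjusted p for those with an unadjusted p under 0.05 and the 2 largest differences per drug. The arms, lineages and reference lists were chosen with earlier results of these data known.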

Additional observations from a re-analysis of the deposited data

How the results depend on the processing

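No miRNA passed the threshold in the fit as reported, and 3 settings gave calls. With no detection filter risperidone gave 1 call (miR-221-3p). With the slide row as a replicate block risperidone gave 1 (miR-338-5p), clozapine 2 (miR-338-5p and miR-3561-5p) and haloperidol 0; none was a lineage-restricted arm, and the block changed no call of the 10 arms. Leaving out 1 array at a time gave 0 to 5 calls with haloperidol, 0 to 6 with risperidone and 0 to 7 with clozapine. The highest counts came without control replicate 2, where miR-150-5p was called with each drug. That fit had 1 control array and all drug levels of miR-150-5p at the floor, so this call had no spread of the arm behind it. The counts of arms detected on all 8 arrays, on any array and tested stayed within 1.5 times under the stricter spot rule (5, 12 and 8) and without each array.

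Of the 30 differences of the arms, some changed sign under other settings. Scaling to the percentile over all probes, which moved the median of all miRNAs to -0.04, 0.35 and 0.42 with haloperidol, risperidone and clozapine, turned 12. Among these was miR-146a-5p with haloperidol at 0.004. With risperidone they were miR-126a-3p at 0.063, miR-146a-5p at 0.28, miR-150-3p at 0.27 and miR-211-5p at 0.21. With clozapine they were miR-126a-3p at 0.34, miR-146a-5p at 0.55, miR-153-3p at 0.34, miR-192-5p at 0.57, miR-211-3p at 0.36, miR-211-5p at 0.57 and miR-223-3p at 0.63. Normexp with an offset of 50 moved the medians to -0.17, 0.37 and 0.55 and turned 19. With haloperidol they were miR-126a-3p (-0.071), miR-153-3p (-0.088), miR-192-5p (-0.11) and miR-211-5p (-0.14). With risperidone they were miR-126a-3p (0.30), miR-150-3p (0.20), miR-150-5p (0.39), miR-153-3p (0.59), miR-192-5p (0.54) and miR-211-5p (0.50). With clozapine they were miR-126a-3p (0.53), miR-146a-5p (0.14), miR-150-3p (0.24), miR-150-5p (0.77), miR-153-3p (0.99), miR-192-5p (0.88), miR-211-3p (0.59), miR-211-5p (0.86) and miR-223-3p (0.88). With no scaling, where the medians were 0.09, -0.64 and -0.55, the turned values were miR-146a-5p (0.14) and miR-211-3p (0.089) with haloperidol, miR-204-5p (-0.45), miR-211-3p (-0.17) and miR-223-3p (-0.37) with risperidone, and miR-204-5p (-0.11) with clozapine. Quantile normalization turned miR-192-5p with risperidone (0.029) and miR-153-3p (0.30), miR-192-5p (0.49), miR-211-5p (0.43) and miR-223-3p (0.50) with clozapine. The brightest probe alone turned miR-192-5p with risperidone (0.036) and clozapine (0.011) and miR-153-3p with clozapine (0.015). The deposited gene-level signal turned miR-126a-3p with haloperidol (-0.008) and miR-192-5p (0.18) and miR-223-3p (-0.87) with risperidone. The cause of these turns was not tested, and 0 of the turned values passed the threshold.

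Many ranges crossed or reached 0 when 1 array at a time was left out. With haloperidol they were -0.24 to 0.25 for miR-126a-3p, -0.62 to 0.38 for miR-146a-5p, -0.15 to 0.77 for miR-153-3p, -0.15 to 0.50 for miR-192-5p, -0.65 to 1.38 for miR-204-5p, -0.49 to 0.15 for miR-211-3p and -0.26 to 0.42 for miR-211-5p. With risperidone they were -0.81 to 0.20 for miR-146a-5p, -0.30 to 0.00 for miR-153-3p, -0.61 to 0.43 for miR-192-5p, -0.85 to 1.18 for miR-204-5p, -0.20 to 1.11 for miR-211-3p and -0.36 to 0.85 for miR-223-3p. With clozapine they were -0.60 to 0.41 for miR-146a-5p, -0.43 to 0.27 for miR-192-5p, -0.70 to 1.33 for miR-204-5p, -0.58 to 0.00 for miR-211-3p, -0.42 to 0.27 for miR-211-5p and -0.15 to 0.12 for miR-223-3p. The range of miR-153-3p with clozapine, -0.30 to -0.00, also reached 0. The other ranges lay below 0. They were -0.44 to -0.12 for miR-223-3p with haloperidol, and -1.02 to -0.023 for miR-126a-3p and -0.71 to -0.032 for miR-211-5p with risperidone. For miR-126a-3p with clozapine the range was -0.55 to -0.062, and for miR-150-5p it was -0.94 to -0.25 with each drug. For miR-150-3p the ranges were -0.78 to -0.27, -0.57 to -0.060 and -1.21 to -0.62 with haloperidol, risperidone and clozapine. A group left with 1 array was assumed to vary like the others. Levels near the floor are limited by signal over background, and so is the detection of the 44 arms seen on 0 arrays.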
